A study of Mus musculus with 6 samples.

Results

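Membrane fusion genes were followed in the retina of newborn mice that lack Meg2, the phosphatase encoded by Ptpn9, and of wild-type mice. The genes were those whose symbols name a syntaxin, a VAMP, Snap23, Snap25, Snap29, Snap47, a synaptotagmin, a complexin, Nsf, Napa or Napb. They numbered 48 of the 19938 genes that a transcript cluster of the array read alone: 14 syntaxins, 6 VAMPs, 4 SNAP-25 relatives, 17 synaptotagmins, 4 complexins and 3 genes of the disassembly machinery. Each of the 48 was read by a single cluster. Vamp2, the main synaptic VAMP, shared its cluster with Ubr3 and is not among them.

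The study compared 3 Meg2 knockout with 3 Meg2 wild-type mice of the C57BL/6NTac strain background at postnatal day 0, with no treatment. RNA from the 2 retinae of each animal went onto a whole-transcript array, and values are normalised log2 signals. The labels name neither a cell type that the knockout is limited to nor the part of Ptpn9 that was removed. Bulk retina was measured, so fewer cells of a type and less RNA per cell cannot be told apart.

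SNARE proteins drive the fusion of vesicles with their target membrane: a VAMP on the vesicle zips together with a syntaxin and a SNAP-25 relative on the target. Synaptotagmins tether vesicles and, in several forms, trigger fusion when they bind calcium, complexins clamp and then assist the assembled complex, and NSF with the SNAP adaptors takes spent complexes apart. Meg2 is known to act on secretory vesicle fusion, and NSF has been described as a protein that it dephosphorylates. In the retina, conventional synapses of amacrine cells use Stx1a with complexins 1 and 2, while ribbon synapses of photoreceptors and bipolar cells, which mature after birth, use syntaxin 3 with complexins 3 and 4.

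The labels were checked on Ptpn9 and on sex-linked genes. Ptpn9 signal read 9.31, 9.58 and 9.28 in the knockout and 10.05, 9.93 and 9.94 in the wild type, a difference of -0.58 (SE 0.087) with no overlap, at a limma adjusted p of 0.436 over all tested clusters. Replicate numbers were shared by the genotypes and moved with sex-linked signal. Xist read 12.58 and 12.73 on the replicate 1 arrays and 6.26 and 6.52 on the replicate 3 arrays, knockout first. On the replicate 2 arrays Xist read 12.54 in both genotypes beside Eif2s3y, a Y-linked gene, at 7.66 and 7.76, between the 5.08 and 5.49 of replicate 1 and the 10.03 and 9.39 of replicate 3. Both replicate 2 arrays thus held signal of both kinds, although the labels give 1 animal per array, and the counts of called genes are given with and without them. Many retinal markers were bright: 9 of 9 measured progenitor genes and 7 of 9 ganglion cell genes lay above the upper quartile of tested clusters (10.1). So did 5 of 10 amacrine and horizontal cell genes, 5 of 8 photoreceptor genes and 3 of 7 Muller glia and astrocyte genes. Of 7 bipolar cell genes, 2 lay above the median signal. Lens genes were dim, with 1 of 10 above the median, but 9 of 10 had differences above 0 (median 0.121), and their part in the results below was not tested.

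Most of the fusion machinery was well above dim signal in newborn retina. Of the 48 genes, 37 lay above the median of tested clusters (8.51) and 18 above the upper quartile. As a reference for dim signal, 12 genes of liver, pancreas, heart, kidney and testis read between 5.45 and 7.77. Signals of different clusters depend on their probes as well as on transcript abundance, so they place a gene as bright or dim and do not rank transcripts. In that sense 6 of the 48 genes (Stx19, Syt12, Cplx4, Syt10, Syt15 and Syt2) were no brighter than genes of other tissues.

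**Figure D1:**
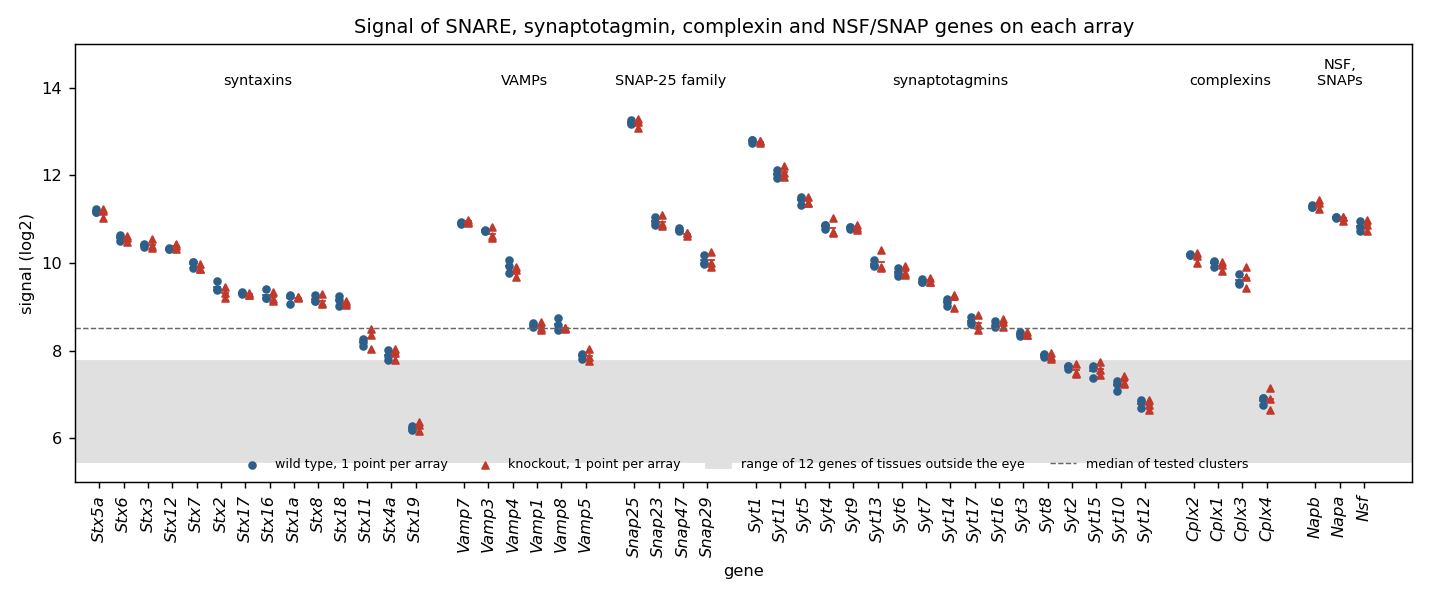
Normalised log2 signal of each of the 48 genes on each array, ordered within families by mean signal, with wild type as circles, knockout as triangles and short lines at the group means. Snap25, at 13.20, and Syt1, at 12.78, stand highest, 6 genes lie inside the grey range of 12 genes of tissues outside the eye, and circles and triangles of each gene lie close together.

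The sequence before the gene start is shown for Syt1, among the brightest of the 48 genes, for Stx19, the dimmest, and for the ribbon synapse genes Stx3 and Cplx3. The 5 stretches are the 250 bases before the annotated start, from RefSeq on GRCm38.p6, printed 5′ to 3′ on the strand of the gene. Capitals mark matches on either strand to GGGCGG (GC box), TGACGTCA (cyclic AMP response element), TATAAA (the core of the TATA box), CACGTG (E-box) and, as the last of the motifs, CCAAT. Syt1 has 2 annotated starts and so 2 stretches.
Syt1 (chr10:109009112-109009361, - strand): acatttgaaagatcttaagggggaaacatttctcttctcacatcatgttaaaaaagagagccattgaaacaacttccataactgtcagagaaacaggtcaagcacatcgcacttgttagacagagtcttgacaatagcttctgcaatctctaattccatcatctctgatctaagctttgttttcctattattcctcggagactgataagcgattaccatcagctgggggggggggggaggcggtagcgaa
Syt1 (chr10:109010976-109011225, - strand): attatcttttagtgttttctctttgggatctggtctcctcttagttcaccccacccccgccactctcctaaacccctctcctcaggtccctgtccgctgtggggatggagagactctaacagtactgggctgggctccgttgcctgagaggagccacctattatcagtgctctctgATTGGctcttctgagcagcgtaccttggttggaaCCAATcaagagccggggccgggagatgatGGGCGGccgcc
Stx3 (chr19:11819404-11819653, - strand): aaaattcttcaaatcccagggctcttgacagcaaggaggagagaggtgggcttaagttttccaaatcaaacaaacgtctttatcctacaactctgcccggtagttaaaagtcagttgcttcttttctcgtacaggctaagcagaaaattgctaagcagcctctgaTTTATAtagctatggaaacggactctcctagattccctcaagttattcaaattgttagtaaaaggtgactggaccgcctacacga
Cplx3 (chr9:57606282-57606531, - strand): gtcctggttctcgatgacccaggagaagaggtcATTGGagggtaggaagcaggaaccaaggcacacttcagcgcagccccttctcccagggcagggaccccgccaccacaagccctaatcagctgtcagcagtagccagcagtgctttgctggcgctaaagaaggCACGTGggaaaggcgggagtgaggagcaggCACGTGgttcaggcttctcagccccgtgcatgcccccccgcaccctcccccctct
Stx19 (chr16:62814426-62814675, + strand): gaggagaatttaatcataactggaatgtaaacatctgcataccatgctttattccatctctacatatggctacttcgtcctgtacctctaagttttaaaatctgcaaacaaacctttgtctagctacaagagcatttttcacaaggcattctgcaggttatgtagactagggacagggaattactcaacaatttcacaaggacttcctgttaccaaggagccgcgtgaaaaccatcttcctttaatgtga

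The upstream Syt1 stretch held a GC box and 2 CCAAT matches, and its other start held no match. Stx19, the dimmest gene, also held no match. Stx3 held a TATAAA match on the opposite strand, and Cplx3 held 2 E-boxes and a CCAAT match. Over windows of 300 bases, from 250 before to 50 after a start, 38 of the 48 genes had 49 windows in the table. A GC box stood in 63.3% of these windows and in 35.7% of all 32851 windows, TATAAA in 4.1% and 13.6%, CCAAT in 32.7% and 37.4%, E-boxes in 16.3% and 7.15%, and the cyclic AMP element in 2.0% and 1.79%. All windows include those of non-coding and predicted genes. Median GC content was 62.67% in the 49 windows and 52.67% in all windows, and the median number of CG dinucleotides was 19 and 7. The motif shares were not adjusted for this base composition. Across the 38 genes Spearman's rho between the number of CG dinucleotides in the window and array signal was -0.01, a description over genes that share the same arrays. A match is only a match of letters.

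No gene of the fusion machinery passed the test between knockout and wild-type retina. Of the 48 genes 0 passed an adjusted p of 0.05 (limma, lowest adjusted p 0.9995), where 0.0% of 23410 tested clusters did, so the count reads like the background. At an unadjusted p under 0.05, 0 were higher and 0 lower in the knockout, where 1.69% and 1.74% of all clusters were. The differences were centred near 0, with 22 genes above it, 26 below and a median of -0.0087, beside 0.0012 over all clusters. Over all clusters 50.7% of differences lay above 0, which is the share to read sign counts against. Genes of a list share the same arrays, and the sign counts of lists were not tested. In size, 43 of the 48 differences were under 0.1 on the log2 scale.

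The intervals bound these differences. Standard errors ran from 0.055 to 0.12, and in this fit without the replicate number the 95% interval of every one of the 48 genes held 0. With the replicate number as a block, 47 of the 48 did, and that of Vamp4 ran from -0.23 to -0.0072. Without the block, the interval of 44 of the 48 genes lay within 0.3 on either side of 0, which is 1.23-fold in signal. The widest bounds of that fit were -0.33 for Stx2 (0.793 of wild type) and 0.35 for Stx11 (1.28-fold). Array signals compress fold changes, so these bounds apply to signal. Each interval stands alone and was not widened for the number of genes.

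**Figure D2:**
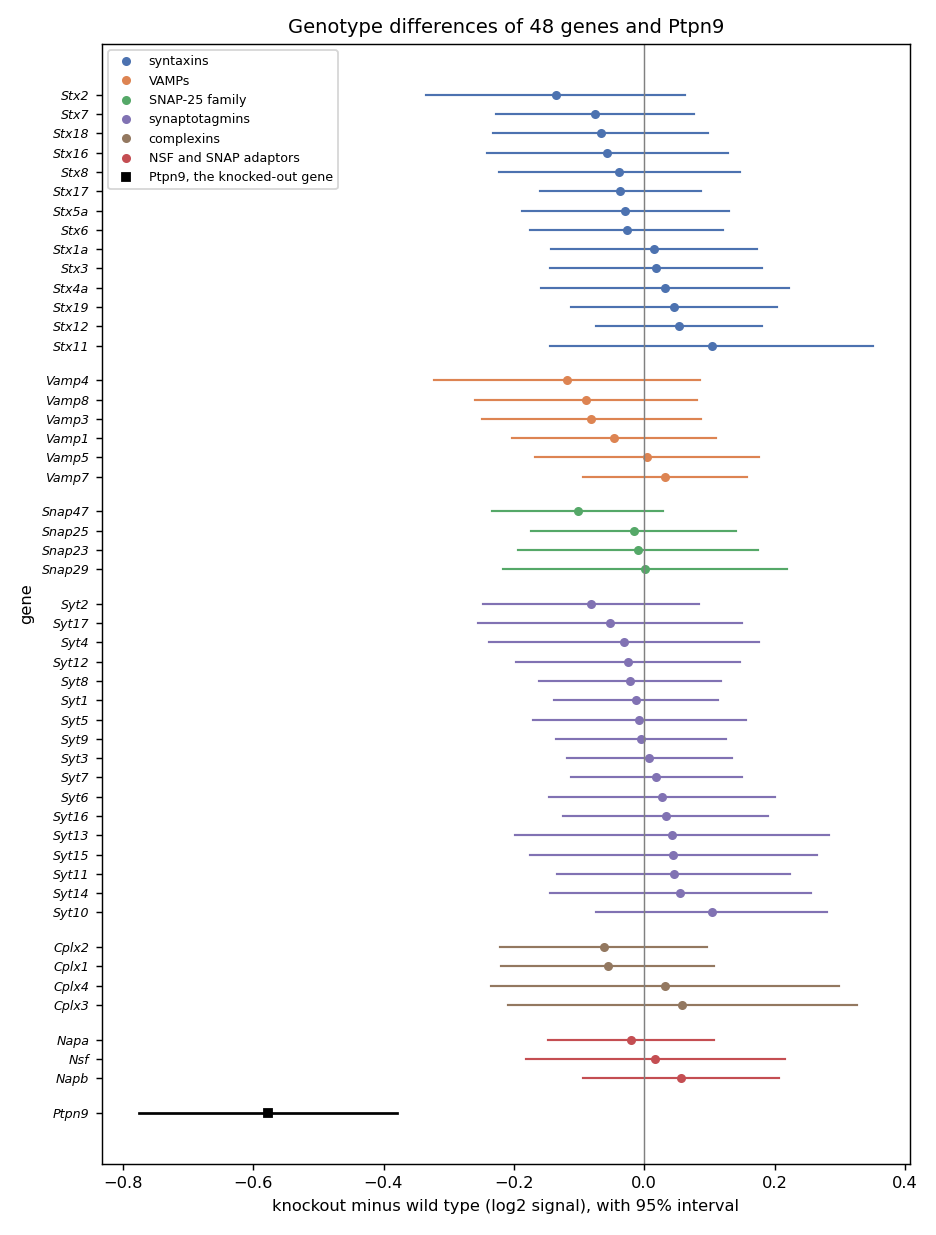
Knockout minus wild-type difference in log2 signal for each of the 48 genes, coloured by family, with its 95% interval from limma without the replicate block, and Ptpn9 as a black square. Each interval of the 48 genes crosses 0, while that of Ptpn9 lies between -0.78 and -0.38.

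The syntaxins, the target-membrane SNAREs, showed 6 differences above 0 and 8 below, with a median of -0.028. Stx1a, which pairs with Snap25 at conventional synapses, read 9.20, 9.22 and 9.22 in the knockout and 9.28, 9.07 and 9.26 in the wild type, so the knockout arrays lay inside the wild-type range (difference 0.015, 95% interval -0.14 to 0.17). Stx3, the ribbon synapse form, read 10.38, 10.34 and 10.56 against 10.44, 10.36 and 10.42, again with overlapping arrays (0.018, -0.15 to 0.18). Stx5a, which works between endoplasmic reticulum and Golgi, was the brightest syntaxin.

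Stx5a read 11.04, 11.19 and 11.24 in the knockout and 11.16, 11.16 and 11.24 in the wild type. It belongs with Stx16, Stx17 and Stx18 to the syntaxins of the Golgi, the endoplasmic reticulum and the autophagosome, of which 4 of 4 lay below 0, between -0.067 and -0.029, with no gene past an unadjusted p of 0.05. The sign turned for Stx5a and for Stx16 in 1 of the 6 fits that leave out an array. The lowest syntaxin difference belonged to Stx2, a plasma membrane form found in many tissues, at -0.14 (SE 0.087; limma, unadjusted p = 0.156). Its knockout arrays of 9.46, 9.20 and 9.32 overlapped the wild-type arrays of 9.41, 9.38 and 9.60. With single arrays left out the Stx2 difference ran from -0.20 (without knockout replicate 1) to -0.070 (without knockout replicate 2) and -0.067 (without wild-type replicate 3).

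Stx11, known for granule release by cytotoxic lymphocytes, had the highest syntaxin difference, 0.10 (SE 0.11). Its arrays read 8.50, 8.35 and 8.04 in the knockout and 8.27, 8.19 and 8.12 in the wild type, so the knockout arrays lay on both sides of the wild type. Leaving out knockout replicate 3 raised the Stx11 difference to 0.23, and leaving out knockout replicate 1 lowered it to 0.0018. Among the endosomal syntaxins Stx6, Stx7, Stx8 and Stx12, 3 of 4 were below 0.

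VAMPs, the vesicle SNAREs, had 4 of 6 differences below 0 and a median of -0.064, which was -0.030 without knockout replicate 3 and -0.032 without wild-type replicate 3. Vamp4, which serves traffic between endosomes and the trans-Golgi, read 9.69, 9.84 and 9.92 in the knockout and 9.78, 9.94 and 10.08 in the wild type. The knockout array was the lower in 3 of 3 replicate numbers, by 0.093, 0.097 and 0.16, while the groups overlapped. Its difference of -0.12 had an unadjusted p of 0.221 in limma and of 0.0401 with the replicate number as a block (adjusted p 0.546), the smallest of the 48 genes in that fit. With single arrays left out the Vamp4 difference ran from -0.19 (without wild-type replicate 1) to -0.056 (without knockout replicate 1) and -0.046 (without wild-type replicate 3). With the block, 0 members were higher and 1 lower at an unadjusted p under 0.05, where 4.46% and 4.36% of all clusters were. Counts this small do not set the 48 genes apart from all clusters.

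Vamp7, a VAMP of late endosomes and growing neurites, was the brightest of its family, at 10.93, 10.99 and 10.92 in the knockout and 10.92, 10.93 and 10.90 in the wild type. It also had the highest VAMP difference, 0.032 (95% interval -0.094 to 0.16). Vamp3, a widely expressed VAMP of recycling endosomes, read 10.57, 10.82 and 10.61 against 10.74, 10.75 and 10.74, with a wild-type spread far narrower than that of the knockout. Vamp5 and Vamp8, which lie next to each other on chromosome 6, differed by 0.0048 and -0.089. The cluster that Vamp2 shares with Ubr3 read 12.74, 12.81 and 12.76 in the knockout and 12.77, 12.78 and 12.65 in the wild type, overlapping arrays whose signal cannot be assigned to either gene.

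Snap25, the neuronal form of its family and the brightest of the 48 genes, read 13.22, 13.29 and 13.08 in the knockout and 13.18, 13.27 and 13.19 in the wild type, overlapping arrays with a difference of -0.016 (95% interval -0.17 to 0.14). Snap47, a widely expressed relative without the usual palmitoylation site, was the gene with the smallest p of the 48, and the only one whose arrays did not overlap.

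Snap47 read 10.61, 10.69 and 10.68 in the knockout and 10.73, 10.76 and 10.81 in the wild type, so each knockout array lay below each wild-type array. The difference was -0.10 (SE 0.058; limma, unadjusted p = 0.110 and adjusted p = 0.9995), and with the replicate block the unadjusted p was 0.0634 in limma. Non-overlapping arrays were found in 0 members with higher and 1 with lower knockout signal, against 4.08% and 4.35% of all clusters, and 1 of 48 is 2.08%. Snap23 and Snap29, forms found in most cells, differed by -0.0096 and 0.0012, and the sign for Snap29 turned with median centring (-0.0037).

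The synaptotagmins had 9 differences above 0 and 8 below, with a median of 0.0079. Syt1, the calcium sensor of fast release, read 12.79, 12.78 and 12.74 in the knockout and 12.75, 12.80 and 12.80 in the wild type, a difference of -0.013 (95% interval -0.14 to 0.11). Its spread was small in both groups (SD 0.031 and 0.034, n = 3). Of the 8 forms that bind calcium 4 lay above 0, and of the other 9 forms 5 did.

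Syt10, a calcium-binding form known from regulated growth factor secretion, had the highest difference in the family, 0.10 (SE 0.078), at a signal within the range of genes of other tissues. It read 7.26, 7.25 and 7.43 in the knockout and 7.30, 7.25 and 7.09 in the wild type, so the difference came from the replicate 3 pair (0.34) and was -0.035 and 0.0041 in the others. Syt2, a fast sensor like Syt1, had the lowest, -0.082 (SE 0.073), also at dim signal, with arrays of 7.69, 7.49 and 7.47 against 7.66, 7.65 and 7.59. With single arrays left out the Syt2 difference ran from -0.15 (without knockout replicate 1) to -0.050 (without knockout replicate 2) and -0.043 (without knockout replicate 3). Syt11, a form that does not bind calcium, was among the brightest genes and differed by 0.045 (SE 0.078).

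Complexins split evenly around 0. Cplx2, of conventional synapses, read 10.01, 10.24 and 10.16 in the knockout and 10.19, 10.19 and 10.21 in the wild type, the lowest difference of the family at -0.062 (95% interval -0.22 to 0.096). Cplx1, its close relative, read 9.83, 10.03 and 9.96 against 9.92, 10.02 and 10.05 (-0.056, -0.22 to 0.11). In both genes the knockout replicate 1 array was the lowest of the 6.

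Cplx3, a ribbon form that is also found in amacrine cells, read 9.68, 9.43 and 9.91 in the knockout and 9.55, 9.53 and 9.76 in the wild type. Its difference was 0.058 (95% interval -0.21 to 0.33), or 0.18 without knockout replicate 2 and -0.061 without knockout replicate 3. Cplx3 lies on chromosome 9, as does Ptpn9, with 16 steps between them in the order of measured genes, and its arrays overlapped between genotypes. Cplx4, the other ribbon form, was dim, at 6.64, 6.90 and 7.15 against 6.76, 6.92 and 6.92 (0.032).

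The disassembly genes had differences between -0.020 and 0.056. Nsf, the ATPase, read 10.86, 10.73 and 10.99 in the knockout and 10.82, 10.73 and 10.97 in the wild type, so that each knockout array sat within 0.044 of the wild-type array of its number (difference 0.017, 95% interval -0.18 to 0.22). Napa, the widely expressed alpha-SNAP, read 10.97, 11.05 and 11.06 against 11.05, 11.04 and 11.06 (-0.020, -0.15 to 0.11). Napb, the neuronal beta-SNAP and the brightest of the 3, read 11.44, 11.37 and 11.24 against 11.28, 11.28 and 11.33 (0.056, -0.094 to 0.21). These values are of transcript and hold nothing on phosphorylation of the NSF protein.

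The same counts were taken without both replicate 2 arrays. In limma 0 of the 48 genes had an adjusted p under 0.05, 0 were higher and 0 lower at an unadjusted p under 0.05, and the median difference was -0.012. The sign turned for 6 of the 48 genes, Stx1a, Snap23, Syt3, Syt8, Syt12 and Syt13. Within replicate numbers, the knockout array was higher in 3 of 3 for 5 genes (Stx4a, Stx12, Vamp7, Syt7 and Syt11) and lower in 3 of 3 for 6 (Stx6, Stx7, Stx16, Stx17, Vamp4 and Snap47), against 16.5% and 15.9% of all clusters.

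Signals also varied with the replicate number, in both genotypes. In 45 of the 48 genes (93.8%) the means of the 3 numbers spanned more than the difference between genotypes, as they did in 85.0% of all clusters. A span over 3 means of 2 arrays tends to be wider than a difference between 2 means of 3 arrays, so the share over all clusters is the one to read it against. The median span was 0.146 for the 48 genes and 0.135 for all clusters, and the median size of the genotype difference was 0.0375 and 0.0484. The same number held the highest array of both genotypes in 33 of the 48 genes, with replicate 3 in 14, replicate 2 in 13 and replicate 1 in 6. Over all clusters this was so in 54.8%.

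Cplx3 spanned the most, 0.36, with replicate 2 the lowest and replicate 3 the highest in each genotype. Snap29 followed the same order, at 10.01, 9.91 and 10.25 in the knockout and 10.01, 9.98 and 10.18 in the wild type, as did Nsf. Syt13, a form that does not bind calcium, went the other way, with replicate 2 highest, at 9.88, 10.29 and 9.91 against 9.94, 10.06 and 9.95. Syt15, a dim form, was highest in replicate 1, at 7.75, 7.45 and 7.57 against 7.66, 7.38 and 7.60.

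**Figure D3:**
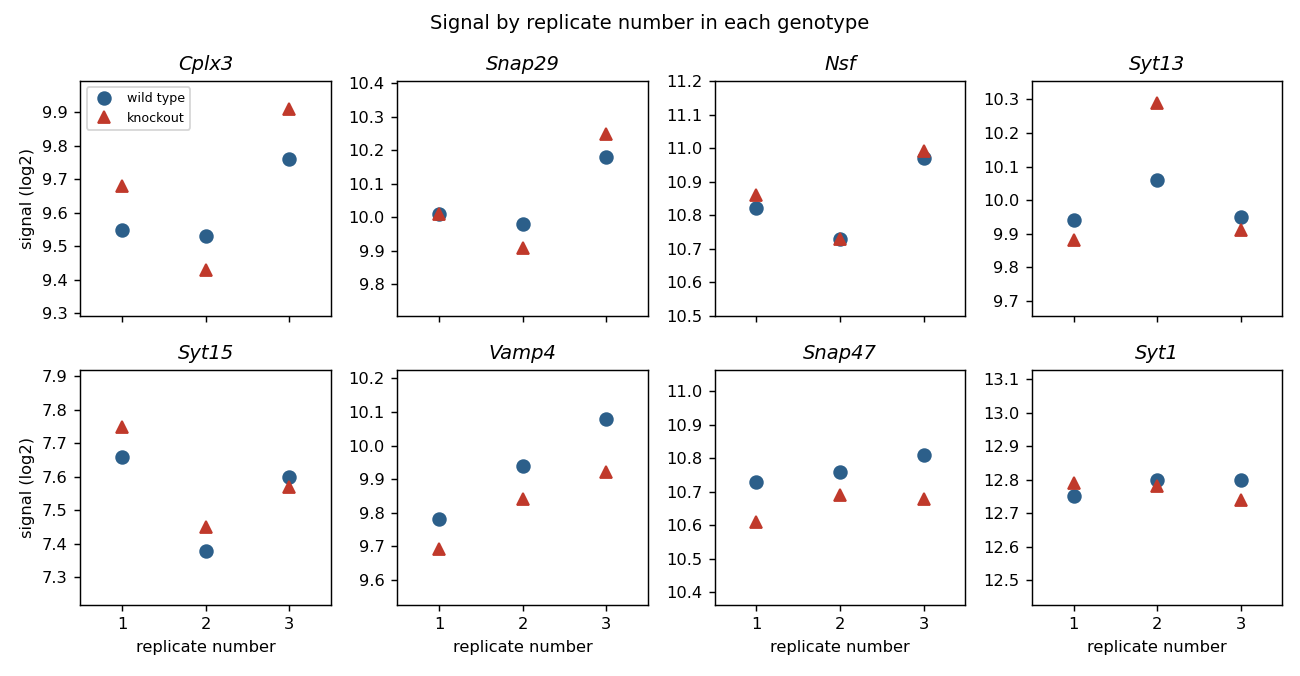
Log2 signal of 8 genes by replicate number, wild type as circles and knockout as triangles, 1 point per array, each panel covering the same span of signal. In Cplx3, Snap29 and Nsf the replicate 3 arrays of both genotypes stand above the others, in Syt13 the replicate 2 arrays do, and in Syt1 all 6 arrays lie between 12.74 and 12.80.

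The replicate number was tested beside genotype with an F-test in limma, a comparison chosen after the values were seen. At an adjusted p under 0.05 it called 0 of the 48 genes (lowest adjusted p 0.143), beside 0.0128% of all clusters. At an unadjusted p under 0.05 it called 16 of the 48 (33.3%), beside 23.2% of all clusters. Markers of some cell types moved with the number too, and others did not. The 8 measured photoreceptor genes averaged -0.024, -0.11 and 0.18 in the knockout and -0.051, -0.068 and 0.068 in the wild type relative to their 6-array means. The 9 ganglion cell genes averaged -0.061, 0.13 and -0.12 in the knockout and -0.059, 0.065 and 0.047 in the wild type, highest in replicate 2 of both. Sex-linked signal, cell makeup and replicate number cannot be told apart here, and their part in these spans was not tested.

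Partner genes of the fusion machinery were read from 4 lists, and none passed an adjusted p of 0.05. Their counts at an unadjusted p under 0.05 are to be read against 1.69% of all clusters higher and 1.74% lower, or 4.46% and 4.36% with the replicate block. Of 13 other SNAREs and SNAP adaptors, which work mostly between endoplasmic reticulum, Golgi and endosomes, 0 were higher and 0 lower at an unadjusted p under 0.05, with a median of 0.011. The lower count was 1 without knockout replicate 2 and without both replicate 2 arrays, and the higher count was 1 without wild-type replicate 1. Use1, of the endoplasmic reticulum, was the brightest of them and differed by 0.011 (SE 0.060). Bet1l, a Golgi SNARE, reached an unadjusted p of 0.0384 in limma with the replicate block, the 1 higher gene of this list in that fit (difference 0.14, adjusted p 0.546).

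Of 21 Sec1/Munc18 and priming genes 1 was higher and 1 lower at an unadjusted p under 0.05, with a median of -0.019. The higher gene was Unc13c, a priming factor, in the cluster that read 9.56, 9.56 and 9.51 in the knockout and 8.74, 9.03 and 8.78 in the wild type, without overlap (0.69, SE 0.081; limma, adjusted p = 0.179). Steps to Ptpn9 along the chromosome were counted only for the 48 genes, so the place of Unc13c relative to Ptpn9 was not examined. The lower gene was Unc13a, the main priming factor of glutamate synapses, at 9.84, 9.93 and 9.90 against 10.04, 10.04 and 10.03. Its arrays did not overlap, and the difference was -0.15 (SE 0.056; limma, adjusted p = 0.9995). The lower count was 0 without knockout replicate 1, wild-type replicate 2 or 3, or both replicate 2 arrays, and 2 without knockout replicate 2. With the block it was 2, the other gene being Stxbp5l, a tomosyn-like inhibitor of SNARE assembly, at -0.13 (limma with the replicate block, adjusted p = 0.534). The higher count stayed at 1 in each of these fits. Arrays of the 2 genotypes did not overlap in 3 genes of this list with higher knockout signal (Unc13c, Unc13d and Cadps2) and 1 with lower (Unc13a). Over all clusters these shares were 4.08% and 4.35%.

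Other C2 domain proteins had 1 of 15 higher and 0 lower at an unadjusted p under 0.05. The higher gene was Myof, a membrane repair protein of muscle and endothelium, at 6.87, 6.76 and 7.09 against 6.65, 6.79 and 6.62 (0.22, SE 0.090). The count was 0 under cyclic loess, with every row of the table, and without knockout replicate 1 or 3 or wild-type replicate 1 or 3, and Myof was too dim for either filter. It was 1 with the block and without both replicate 2 arrays. Beside it 7 of 9 endothelial and pericyte markers had differences above 0. The 9 averaged 0.15, -0.12 and 0.22 in the knockout and -0.031, -0.12 and -0.099 in the wild type. Differences also lay above 0 in 6 of 7 microglia markers and 9 of 10 lens genes, and in 4 of 9 ganglion cell markers. The part of these cell types in the Myof difference was not tested.

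Vesicle and active zone genes had 20 of 29 differences below 0, where 50.7% of all clusters lay above 0, and this direction was not tested. Their median was -0.040, with 0 higher and 1 lower at an unadjusted p under 0.05. The lower count was 0 without knockout replicate 2 or wild-type replicate 3, 2 under cyclic loess, and 1 without both replicate 2 arrays. The lower gene was Rab3d, a vesicle GTPase of secretory cells, at 8.85, 8.81 and 8.85 in the knockout and 8.99, 8.94 and 9.13 in the wild type, without overlap (-0.19, SE 0.066; limma, adjusted p = 0.9995). Slc17a7, which loads glutamate into vesicles, read 9.56, 8.93 and 9.46 against 9.75, 9.33 and 9.58, lower in 3 of 3 replicate numbers although the groups overlapped. Its difference of -0.23 had an unadjusted p of 0.190 in limma and of 0.00887 with the replicate block (adjusted p 0.514). With the block 3 genes of this list were lower at an unadjusted p under 0.05 (Rab3d, Slc17a7 and Slc17a8, another glutamate loader) and 0 higher, where 4.36% and 4.46% of all clusters were. Arrays did not overlap in 1 of the 29 genes with higher and 3 with lower knockout signal, against 4.08% and 4.35% of all clusters.

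**Figure D4:**
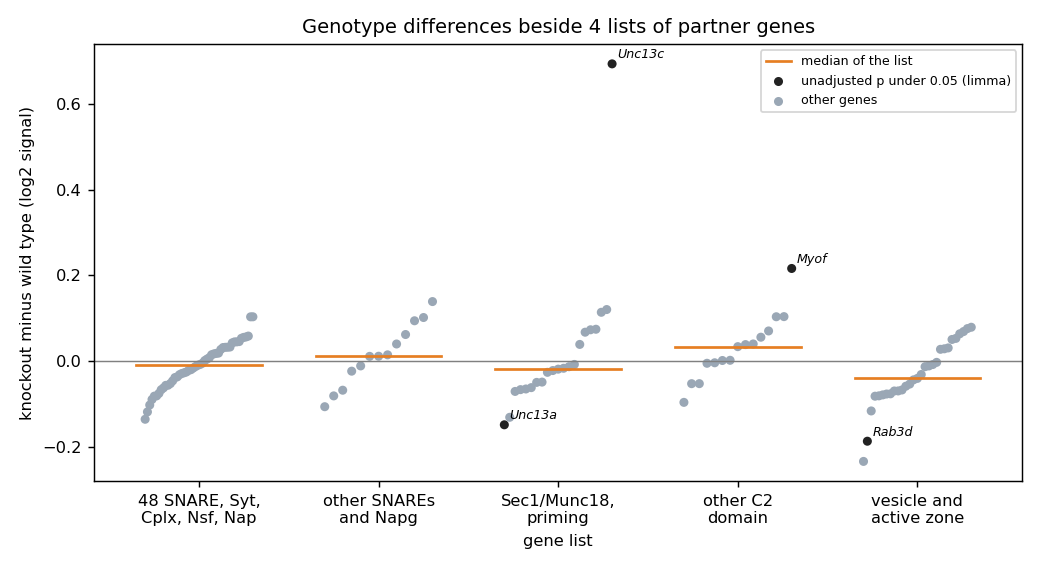
Knockout minus wild-type difference in log2 signal for each gene of the 48 and of 4 lists of partner genes, sorted within lists, with black points for an unadjusted p under 0.05 in limma and an orange line at the median. The 48 genes hold no black point and lie between -0.14 and 0.10, and Unc13c, at 0.69, stands apart from the partner genes.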

How the data were processed

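Retinal RNA of 3 knockout and 3 wild-type mice was measured on 6 arrays. Each deposited value is the log2 signal of a transcript cluster, made by the authors with Affymetrix Expression Console and RMA per the submitters' processing notes. RMA sets all arrays to a common distribution, which removes a shift shared by most genes. Array medians lay between 7.84 and 7.91. Of 35557 clusters, 21789 had a single gene in the platform annotation, 1621 several and 12147 none there. All 48 members matched the RefSeq gene table by Entrez identifier.

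Knockout and wild type were compared with limma 3.58.1 (lmFit, eBayes; R 4.3.3) over the 23410 clusters with at least 1 gene, with no filter on dim signal and Benjamini-Hochberg adjustment. An exact permutation test of 3 against 3 cannot go below p = 0.1 and was not used. The fit was tested on simulated data with independent noise on each array. That test did not cover arrays that vary together by replicate number, as these do. Tables and figures used Python 3.11.15, pandas 2.3.3 and matplotlib 3.10.9.

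Arrays that share a replicate number deviated together from their genotype means (correlations 0.476, 0.485 and 0.455 over all clusters). Over the 48 genes the correlations were 0.523, 0.734 and 0.562. A fit with that number as a block was therefore computed for each result. Where the pairing comes from is not given in the labels. Members and lists were chosen with earlier results of these data known. Genes named with values were the textbook synaptic forms, in each family the brightest and the 2 extreme differences, members at an unadjusted p under 0.05 with or without the block, and in partner lists the largest such differences or the brightest gene. Other genes given with values (Vamp3, Vamp5, Vamp8, Snap23, Syt11, Syt13, Syt15, Bet1l, Stxbp5l, Slc17a7) were chosen after their values were seen. Alternatives were the block, each array left out, 2 scalings (median centring, cyclic loess), 2 variance priors (with a trend, robust), weights per array, all rows of the table, and dropping clusters dimmer than the median or the 25th percentile.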

Additional observations from a re-analysis of the deposited data

How the results depend on the processing

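No member passed an adjusted p of 0.05 in limma under any alternative run. At an unadjusted p under 0.05, 0 were higher in the main fit and in every alternative except without knockout replicate 3, where Stx11 made it 1, so the range over arrays left out was 0 to 1. The lower count of 0 became 1 with the replicate block (Vamp4), and with arrays left out it ranged from 0 to 2: 2 without knockout replicate 1 (Stx2, Syt2) and 1 without knockout replicate 2 (Vamp3). The replicate block changed no other call among members. The median difference of -0.0087 lay between -0.016 and -0.0087 under other scalings, variance settings and filters, and between -0.023 and 0.0070 with arrays left out. The sign of 46 of 48 members held under both scalings (Snap29 and Vamp5 turned), and that of 17 held with each array left out. Each member had a single cluster, so averaging clusters changed nothing. Dropping replicate 2 of both genotypes and testing the replicate number were chosen after seeing the data. Arrays were 3 per genotype, which limits the precision, and 11 members lay below the median signal.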
